A study of Homo sapiens with 20 samples.

Results

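The CYP4 cluster of chromosome 1p33 is a run of cytochrome P450 genes that was followed here in MDA-MB-468 cells, a human triple-negative breast cancer line, during treatment with epidermal growth factor (EGF). It was represented by 6 genes, CYP4Z1, CYP4Z2P, CYP4X1, CYP4B1, CYP4A11 and CYP4A22, out of 60271 genes in the count table. The genes were chosen by name, with their measured counts in these same 20 libraries known, so their levels and changes are a description and carry no test. The study asked how lipid metabolism is regulated while EGF drives these cells from an epithelial towards a mesenchymal state (EMT). Cells of this 1 line were grown in serum and then kept without it, for 24 h before EGF in the study's methods. They were left untreated (control) or given EGF at 50 ng/mL. The treated groups received EGF for 12, 24, 48 or 72 h. Every group held 4 biological replicates, seeded and harvested at the same time, and all groups, control included, had gone through serum withdrawal. With shared seeding and harvest, a shorter time of EGF goes with a longer time without serum before it. The 24 h then cannot hold for every group. Time with EGF and time without serum before it cannot be told apart here. The same 4 control libraries served as the reference at every time.

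CYP4 enzymes are membrane-bound monooxygenases of the endoplasmic reticulum. They are best known for adding oxygen at the omega end of fatty acids, taking electrons from the reductase POR. CYP4Z1 is known for its high expression in mammary tissue and breast carcinoma, CYP4X1 is an orphan P450 with few known substrates, and CYP4B1 acts on short fatty acids and on foreign compounds, mainly in the airways. CYP4A11 is the fatty acid omega-hydroxylase of liver and kidney, CYP4A22 is its close copy, and CYP4Z2P is a transcribed pseudogene copied from CYP4Z1.

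All coordinates are on GRCh38, with gene models of GENCODE 29. CYP4B1 (ENSG00000142973) lay at chr1:46757838-46819413 on the plus strand. CYP4Z2P (ENSG00000154198) followed at chr1:46843095-46900437 on the minus strand, and CYP4A11 (ENSG00000187048) at chr1:46929177-46941484 on the minus strand. CYP4X1 (ENSG00000186377) at chr1:47023568-47050751, CYP4Z1 (ENSG00000186160) at chr1:47067488-47118319 and CYP4A22 (ENSG00000162365) at chr1:47137435-47149741 were all on the plus strand. No exon of any of the 6 genes overlapped an exon of another annotated gene. In the annotated transcripts, the longest reading frame had 1518 bases in CYP4Z1, 1530 in CYP4X1, 1539 in CYP4B1, 1563 in CYP4A11 and 1563 in CYP4A22. In CYP4Z2P, it had 1023 bases.

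The coding sequence for the haem-binding signature, the stretch that holds the cysteine bound to the haem iron in every active P450, is shown because it separates the pseudogene from the genes that can encode an enzyme. Each line gives 30 bases of the coding strand from the GENCODE transcripts, 5′ to 3′, with capitals at bases that differ from CYP4Z1. For CYP4Z2P, the line is the ungapped stretch of its transcripts closest to that of CYP4Z1.
CYP4Z1: ttctcagctggattaaggaactgcattggg
CYP4X1: ttctcagctggatCaaggaactgcattggg
CYP4B1: ttctcTgctggGCCCaggaactgcattggg
CYP4A11: ttctcagGAggatCaaggaactgcatCggg
CYP4A22: ttctcagGAggatCaaggaactgcatCggg
CYP4Z2P: ttctcagctggattaagTaaTtCTaAtTTC
CYP4X1 differed from CYP4Z1 at 1 of the 30 bases, CYP4A11 and CYP4A22 at the same 4, and CYP4B1 at 5. CYP4Z2P differed at 8, all in the last part of the stretch.

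Reads of 75 bases cannot always tell the copies in this cluster apart. CYP4Z1 and CYP4Z2P were identical at 97.5% of 1512 aligned transcript bases, and 23.5% of all 75-base stretches in the CYP4Z1 transcripts also occurred in those of CYP4Z2P. Seen from the pseudogene, 29.6% of its stretches occurred in CYP4Z1. The reading frames of CYP4A11 and CYP4A22 were identical at 97.4% of bases, and 23.0% of the CYP4A11 stretches were shared with CYP4A22. No other pair of the 6 genes shared a 75-base stretch, and the identity of the other pairs lay between 58.6% (CYP4Z2P and CYP4B1) and 66.9% (CYP4Z1 and CYP4X1). As an example, the 75 bases at the middle of the CYP4Z1 reading frame occurred without a difference in CYP4Z2P, so no letter is in capitals.
CYP4Z1 and CYP4Z2P: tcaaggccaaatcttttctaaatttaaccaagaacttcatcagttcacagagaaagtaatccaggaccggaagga
How the authors' counting treated a read from such a stretch is not stated, so the split of counts within these copies is uncertain.

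The total count per library ranged from 15611961 to 25856953, with a median of 20398047. Of all 60271 genes, 33535 had at least 1 count and 16522 passed the filter on low counts, among them 4 of the 6 cluster genes. CYP4A11 and CYP4A22 did not pass. Levels are given as CPM, the count scaled to a common library size, after TMM scaling, which corrects for libraries whose reads are taken up by a few strongly expressed genes. The epithelial markers EPCAM, CDH1, KRT8, KRT18 and EGFR were all above 1 CPM in every group. Their summed CPM was between 4522 and 4846 in the control libraries and between 17648 and 18346 at 12 h, mostly from EGFR and KRT18, and was above control at the other times too. The part of this rise in the results was not tested. The single markers did not all follow the sum. CDH1 had a mean of 127.4 CPM in control, 181.1 at 12 h and 90.5 at 72 h. EPCAM had 181.2, 214.6 and 144.3 CPM in these groups. Of the receptor genes listed as low in triple-negative cells, PGR had no count in any library, while ESR1 and ERBB2 were detected. Their means were 5.03 and 21.5 CPM in control, and 2.33 and 8.87 CPM at 12 h. Of 8 markers of blood, endothelial and fibroblast cells, COL3A1 and CD3E had a mean of at most 0.0441 CPM in every group. The endothelial marker PECAM1 had a mean of 2.305 CPM in control, 0.374 at 12 h, 4.195 at 48 h and 3.08 at 72 h. The summed CPM of the 8 markers rose from between 8.12 and 10.9 in the control libraries to between 40.0 and 46.2 at 72 h, most of it from CD68 at 26.6 CPM and COL1A1 at 13.9 CPM, and its part in the results was not tested. These are bulk samples, in which fewer cells of a kind and less RNA per cell cannot be told apart.

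CYP4X1 was the most abundant gene of the cluster and, of the 4 genes that passed the filter, kept the largest part of its level under EGF. The 4 control libraries had 150 to 171 CPM, with single values of 157.7, 149.9, 170.7 and 154.2 CPM. At 12 h, the libraries had 40.3, 39.8, 43.1 and 43.5 CPM. At 24 h, they had 44.8, 38.9, 40.7 and 37.5 CPM. The libraries at 12 and 24 h overlapped, and all 8 lay below every control. At 48 h, CYP4X1 stood at 113.9, 105.1, 112.4 and 116.1 CPM, higher than in any other EGF library and lower than in any control. At 72 h, it was low again, at 48.8, 55.5, 57.0 and 51.5 CPM. The control mean was 158.2 CPM ± 8.96 (SD, n = 4). With EGF, the means were 41.7 ± 1.88, 40.5 ± 3.18, 111.9 ± 4.76 and 53.2 ± 3.76 CPM, in order of time. On the log2 scale, these means corresponded to changes against control of -1.92 ± 0.07 (SE), -1.97 ± 0.07, -0.50 ± 0.07 and -1.57 ± 0.07. In other words, 26.4%, 25.6%, 70.7% and 33.6% of the control level was left at the 4 times.

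CYP4Z1 lost more of its level than CYP4X1 at every time, and unlike CYP4X1 it went on falling between 12 and 24 h. The control libraries had 41.3, 41.4, 50.2 and 43.7 CPM. At 12 h, the values were 8.28, 7.51, 8.83 and 10.6 CPM. At 24 h, they were 0.494, 0.452, 0.448 and 0.341 CPM, which rested on only 7 to 10 counts per library. No library at 12 h reached as low as any library at 24 h, and the mean fell a further 20.3-fold between these times. At 48 h, CYP4Z1 was back at 2.60, 3.76, 2.20 and 3.08 CPM. At 72 h, the libraries had 0.424, 0.284, 0.446 and 0.255 CPM, from 4 to 11 counts each. The control mean of 44.1 CPM ± 4.20 (SD, n = 4) was 5.02-fold that at 12 h, 102-fold that at 24 h, 15.2-fold that at 48 h and 125-fold that at 72 h. The fitted log2 fold changes of CYP4Z1 were -2.32 ± 0.12 (SE), -6.65 ± 0.18, -3.93 ± 0.14 and -6.91 ± 0.18.

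CYP4Z2P, the pseudogene copy of CYP4Z1, followed the same course at a lower level, down to no count at all at 72 h. Its control libraries had 9.94, 10.04, 11.4 and 10.7 CPM, with 198 to 268 counts. At 12 h, they had 0.909, 1.58, 1.21 and 0.908 CPM. At 24 h, 2 libraries had no count and the others 3 and 2 counts (0.169 and 0.128 CPM). At 48 h, the values were 0.609, 0.733, 0.721 and 0.181 CPM, and the lowest of these was still above the highest at 24 h. All 4 libraries at 72 h had 0 counts. Against the limit of 3 counts over the group that a count of 0 allows, CYP4Z2P was at least 271-fold lower than control at 72 h. At the other times, its log2 fold changes were -3.19 ± 0.27 (SE) at 12 h, -7.15 ± 0.41 at 24 h and -4.21 ± 0.29 at 48 h, of which the second rests on 5 counts in all. Without EGF 24 h replicate 2, which held 3 of these 5 counts, the change at 24 h was -7.97, and with a prior count of 2 in all libraries it was -5.99. As a percent of the CYP4Z1 count, the CYP4Z2P count was between 22.8% and 24.4% in the control libraries and between 8.60% and 21.0% in those at 12 h. The libraries of 48 h spanned 5.88% to 32.8% and overlapped the control. Intervals and limits given here cover counting error only.

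CYP4B1 lost most of its level within the first 12 h. In the control, it had 22.6, 24.5, 20.4 and 23.7 CPM. At 12 h, the libraries had 1.77, 1.42, 1.77 and 1.72 CPM. At 24 h, they were lower still, with 1.09, 0.847, 0.705 and 0.585 CPM. No library at 24 h overlapped those at 12 h. At 48 h, CYP4B1 stood at 5.15, 6.16, 4.56 and 4.12 CPM, above all other EGF libraries. At 72 h, the values were 0.924, 1.54, 1.51 and 1.34 CPM. The mean of 22.8 CPM ± 1.76 (SD, n = 4) in control was 13.7-fold that at 12 h, 28.3-fold that at 24 h, 4.57-fold that at 48 h and 17.2-fold that at 72 h. Its log2 fold changes were -3.77 ± 0.15 (SE), -4.81 ± 0.17, -2.19 ± 0.13 and -4.13 ± 0.16.

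CYP4A11 and CYP4A22, the liver and kidney enzymes of the cluster, were barely detected. CYP4A11 had 29 counts over the 4 control libraries, spread unevenly as 1, 6, 7 and 15, and 1, 10, 26 and 9 counts over the groups at 12, 24, 48 and 72 h. Its ratio to control was 0.0393 at 12 h, with an exact 95% interval of 0.000962 to 0.237 for counting error, 0.4095 at 24 h (0.178 to 0.864), 0.907 at 48 h (0.513 to 1.60) and 0.354 at 72 h (0.147 to 0.768). These ratios rest on control replicate 4, which held 15 of the 29 counts. Without it, an alternative chosen after seeing the data, they were 0.0621, 0.648, 1.43 and 0.560 in order of time. At 48 and 72 h, no CYP4A11 library lay below all controls. CYP4A22 had 4, 5, 6 and 6 counts in the control libraries and 1, 1, 4 and 5 counts over the groups at the 4 times. Its ratio to control was 0.0542 at 12 h (0.00131 to 0.337), 0.0566 at 24 h (0.00137 to 0.352), 0.193 at 48 h (0.0481 to 0.571) and 0.272 at 72 h (0.0800 to 0.740). Every EGF library had a lower CYP4A22 CPM than every control. Because of the shared stretches, part of these few counts may belong to the other copy.

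**Figure D1:**
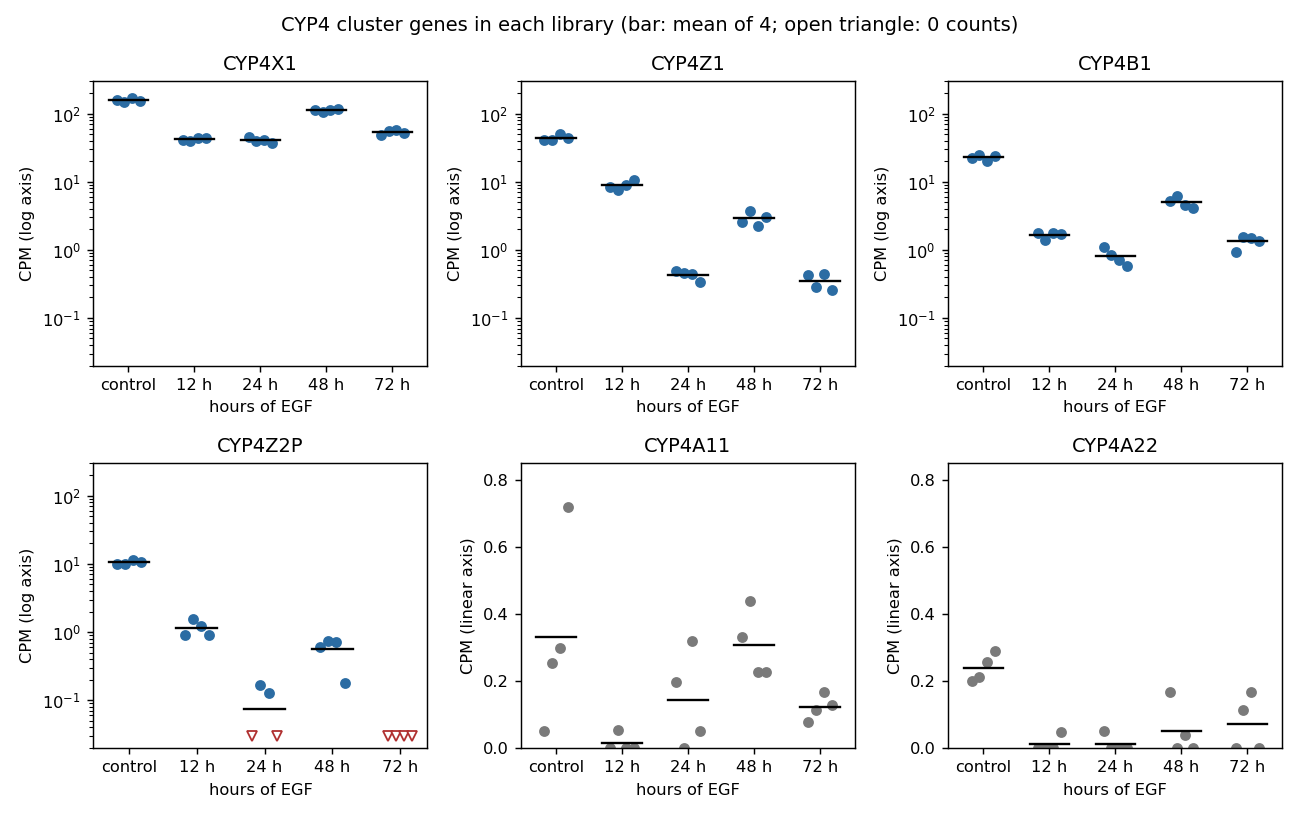
CPM of each cluster gene in each of the 20 libraries, by hours of EGF, with a log axis for the 4 genes that passed the filter and a linear axis for CYP4A11 and CYP4A22. Black bars are means of 4 libraries and open triangles mark libraries with 0 counts. CYP4X1 dipped to about 40.5 CPM at 24 h and stood at 111.9 CPM at 48 h, while CYP4Z2P had 0 counts in all 4 libraries at 72 h.

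These 4 genes shared a level below control at every time and a partial return at 48 h. For CYP4X1, CYP4Z1, CYP4B1 and CYP4Z2P, all 4 EGF libraries lay below all 4 controls at each time. Over all 16522 genes tested, this held for 31.4%, 24%, 15.3% and 25.9% at 12, 24, 48 and 72 h. In edgeR's quasi-likelihood test, 69.4%, 58.8%, 45.8% and 61.6% of all genes had an adjusted p under 0.05 at these times, in both directions together. Nothing is read from these shares for the cluster genes, whose counts were known when they were chosen. From 24 to 48 h, the mean rose 6.71-fold for CYP4Z1, 7.55-fold for CYP4Z2P, 6.20-fold for CYP4B1 and 2.77-fold for CYP4X1. From 48 to 72 h, it fell again 8.26-fold for CYP4Z1, 3.77-fold for CYP4B1 and 2.10-fold for CYP4X1. In none of these steps did the libraries overlap. How often this held among all genes tested was not counted, so nothing is read from it. A higher level at 48 h was common among genes lowered by EGF. Of 3584 genes called lower at both 24 and 72 h, 77.2% were higher at 48 h than at either time. Of 137 that were at least 4-fold lower at both times, 89.8% were. Genes that passed the control level at 48 h, if any, are counted in these shares.

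The genes differed in which time was the odd one. CYP4Z1 was higher at 12 h than at 48 h, 3.02-fold, and CYP4Z2P was so 2.05-fold. CYP4X1 and CYP4B1 showed the opposite order, with 2.68-fold and 3.00-fold higher means at 48 h than at 12 h. The libraries of 12 and 48 h did not overlap for any of the 4 genes, and the share of all genes for which this held was not counted.

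Levels of different genes were compared only per kb of merged exon length. In the control, CYP4X1 had 62.1 CPM per kb, CYP4Z1 22.1, CYP4Z2P 6.58, CYP4B1 6.58, CYP4A11 0.0849 and CYP4A22 0.0619. With the length of the longest transcript in place of merged exons, CYP4B1 had 10.5 CPM per kb, above CYP4Z2P, CYP4A11 had 0.1305 and CYP4A22 0.0942. With merged exons, neighbours in this order did not overlap between libraries, except CYP4Z2P with CYP4B1 and CYP4A11 with CYP4A22. At 24 and 72 h, CYP4B1 stood above CYP4Z1, although their libraries overlapped at 24 h. At 48 h, the order of these genes turned with the length used, as CYP4B1 had 1.44 CPM per kb against 1.46 for CYP4Z1 by merged exons, and 2.30 against 1.53 by the longest transcript. The sum over the 6 genes was 97.5 CPM per kb in control and 22.0, 16.4, 47.2 and 21.5 at the 4 EGF times in order. Of this sum, CYP4X1 made up 63.7% in control and 74.5%, 96.7%, 92.9% and 97.2% with EGF, in the same order. The CYP4Z1 share was 22.7% in control, 20.04% at 12 h and 1.32% at 24 h.

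**Figure D2:**
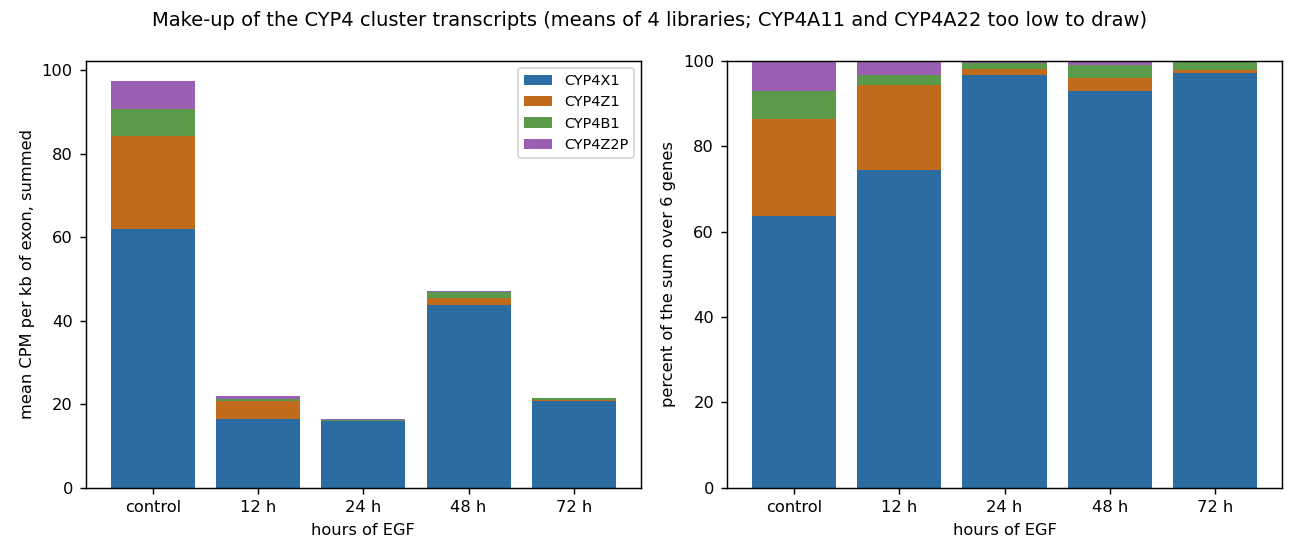
Left, mean CPM per kb of exon of the 4 main cluster genes, stacked, by hours of EGF. Right, the same values as percent of the sum over 6 genes. The summed level fell from 97.5 CPM per kb in control to 16.4 at 24 h, and the CYP4X1 share rose from 63.7% to 96.7%.

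The promoters of 3 cluster genes were available from RefSeq (GRCh38.p14), those of CYP4Z1, CYP4X1 and CYP4B1. They are shown because each of these genes stood below control at every time while lying on a different stretch of the cluster. Each line gives the plus strand 5′ to 3′ from 250 bases before the RefSeq start, and ends earlier where a GENCODE exon begins within these bases. Capitals mark TATAAA or AGAACA on either strand. RefSeq and GENCODE starts can differ. The CYP4B1 stretch lies inside the GENCODE gene, which begins at chr1:46757838, and the CYP4Z1 stretch ends before its GENCODE start at chr1:47067488.
CYP4Z1 (chr1:47066981-47067230): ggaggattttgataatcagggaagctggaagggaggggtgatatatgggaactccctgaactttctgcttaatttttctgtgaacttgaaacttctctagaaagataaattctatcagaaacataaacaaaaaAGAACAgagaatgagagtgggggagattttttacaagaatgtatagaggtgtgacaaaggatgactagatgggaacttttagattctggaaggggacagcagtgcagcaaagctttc
CYP4X1 (chr1:47023419-47023567): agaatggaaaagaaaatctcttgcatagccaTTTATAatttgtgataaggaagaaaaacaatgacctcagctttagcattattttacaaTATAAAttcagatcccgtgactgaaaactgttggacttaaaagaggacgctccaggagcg
CYP4B1 (chr1:46798796-46798997): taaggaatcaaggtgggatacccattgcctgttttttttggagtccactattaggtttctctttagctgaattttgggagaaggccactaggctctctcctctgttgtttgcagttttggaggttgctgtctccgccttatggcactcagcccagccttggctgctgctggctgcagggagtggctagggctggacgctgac
Over the whole 250 bases, searched on both strands, TATAAA, the core of the TATA box, occurred 2 times at CYP4X1 and 1 time at CYP4B1, there beyond the printed stretch, and did not occur at CYP4Z1. It was present in 10.7% of all 35116 RefSeq promoters. AGAACA, a half-site of steroid receptors, occurred 1 time at CYP4Z1 and 1 time in the second RefSeq promoter of CYP4X1 at chr1:46961114-46961363, which is not printed, against 12.4% of all promoters. TGANTCA, the AP-1 motif, and TGTTTAC, a forkhead motif, were in none of the 4 windows, against 6.57% and 2.98% of all promoters, and CCAAT was in none, against 32.0%. The CYP4Z1 window held no CG dinucleotide and the second CYP4X1 window held 1, while the median promoter held 11. The shorter printed stretches of CYP4X1 (149 bases) and CYP4B1 (202 bases) held 3 and 2. These are matches of letters and are no evidence of binding.

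Within 500 kb on either side of the cluster, GENCODE listed 41 other genes, all of which had a line in the count table. Of these, 18 passed the filter, 9 had counts too low to be tested and 14 had no count in any library. Not detected were the CYP4A pseudogenes that lie between CYP4A11 and CYP4X1 (CYP4A26P, CYP4A43P, CYP4A27P and CYP4A44P), and the tubulin pseudogenes TUBAP8 and TUBAP9 inside CYP4Z2P and CYP4Z1 had means of at most 0.0587 CPM. The transcription factor gene TAL1 was likewise too low to be tested. In edgeR's quasi-likelihood test, 6 of the 18 neighbours rose and 5 fell at 12 h, 4 rose and 8 fell at 24 h, 4 rose and 4 fell at 48 h, and 6 rose and 6 fell at 72 h. The background of all genes was 69.4%, 58.8%, 45.8% and 61.6% at these times. The median log2 fold change of the neighbours was 0.01, -0.07, -0.04 and -0.16, against -0.05, -0.01, 0.01 and -0.01 over all genes tested. The split depended on the scaling. When libraries were scaled by total count alone, 1 neighbour was higher and 11 lower at 12 h, 2 were higher and 10 lower at 24 h, and 4 were higher and 9 lower at 72 h. With upper quartile scaling, 3 were higher and 7 lower at 12 h.

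The nearest tested protein-coding genes on either side of the cluster had small changes. EFCAB14, an EF-hand protein gene on the side of CYP4B1, had 313.2 CPM ± 8.16 (SD, n = 4) in control and 313.2 ± 9.30 at 12 h, and its largest change was -0.17 ± 0.05 (SE, adjusted p = 0.0115) at 48 h, a call that was lost without EGF 48 h replicate 2, with no filter beyond 1 count, and with only the 8 libraries compared in the fit. PDZK1IP1, a membrane protein gene beyond CYP4A22, went from 47.2 CPM ± 7.40 to 37.1 ± 3.37 at 24 h (log2 fold change -0.35 ± 0.11, adjusted p = 0.00793) and to 61.4 ± 8.15 at 72 h (0.38 ± 0.11, adjusted p = 0.00355). Its rise of 0.29 at 12 h was lost when libraries were scaled by total count alone, by upper quartiles, or without control replicate 3 or 4.

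Noncoding genes at the CYP4A22 end fell together with the cluster at the early times. CYP4A22-AS1, a long noncoding RNA gene on the opposite strand of CYP4A22, went from 0.800 CPM ± 0.128 (SD, n = 4) to 0.157 ± 0.0498 at 12 h, a log2 fold change of -2.31 ± 0.38 (SE, adjusted p = 1.11e-05, edgeR), and by -1.49 ± 0.35 at 24 h. At 48 h, it was at 0.782 CPM ± 0.202, with a log2 fold change of -0.03 ± 0.30 (adjusted p = 0.95). LINC00853, whose exons overlap CYP4A22-AS1 over a few bases on the other strand, fell from 1.56 CPM ± 0.219 to 0.547 ± 0.196 at 12 h (-1.51 ± 0.28, adjusted p = 4.19e-05) and 0.423 ± 0.190 at 24 h (-1.85 ± 0.29). At 48 and 72 h, neither passed the test. The strand setting of the counting is not stated, so reads of these partners may be mixed. From 12 to 48 h, CYP4A22-AS1 rose by 2.28 ± 0.39 on the log2 scale (adjusted p = 1.4e-05).

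Further away, 3 genes fell at all 4 times. Of all 16522 genes tested, 1714 (10.4%) were called lower at all 4 times. LINC01389, a noncoding gene, had 2.88 CPM ± 0.427 in control and 0.578 ± 0.202 at 72 h, a log2 fold change of -2.32 ± 0.27 (adjusted p = 7.89e-08). FAAH, which hydrolyses anandamide and other fatty acid amides, had 9.86 CPM ± 1.82 in control and 4.82 ± 0.162 at 24 h (-1.03 ± 0.14, adjusted p = 7.02e-07). Its fall at 48 h, -0.36 ± 0.13, was lost in 6 of 16 alternatives, among them those without control replicate 1 or 2 and without EGF 48 h replicate 3 or 4. ATPAF1, an assembly factor of the mitochondrial ATP synthase, was lowest at 12 h (-0.92 ± 0.07, adjusted p = 9.95e-11).

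In the opposite direction, FOXD2-AS1 and DMBX1 rose. FOXD2-AS1, a long noncoding RNA gene, rose at all 4 times and went from 1.60 CPM ± 0.431 to 6.33 ± 0.592 at 24 h (1.99 ± 0.18, adjusted p = 1.25e-09). DMBX1, a homeobox gene, was at 1.97 CPM ± 0.443 in control, 2.01 ± 0.315 at 12 h and 7.66 ± 0.456 at 72 h (1.95 ± 0.16, adjusted p = 2.74e-10). The other 9 tested neighbours, RAD54L, LRRC41, UQCRH, NSUN4, MKNK1, MOB3C, STIL, CMPK1 and FOXD2, had log2 fold changes between -0.69 (RAD54L at 72 h) and 0.65 (FOXD2 at 12 h).

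**Figure D3:**
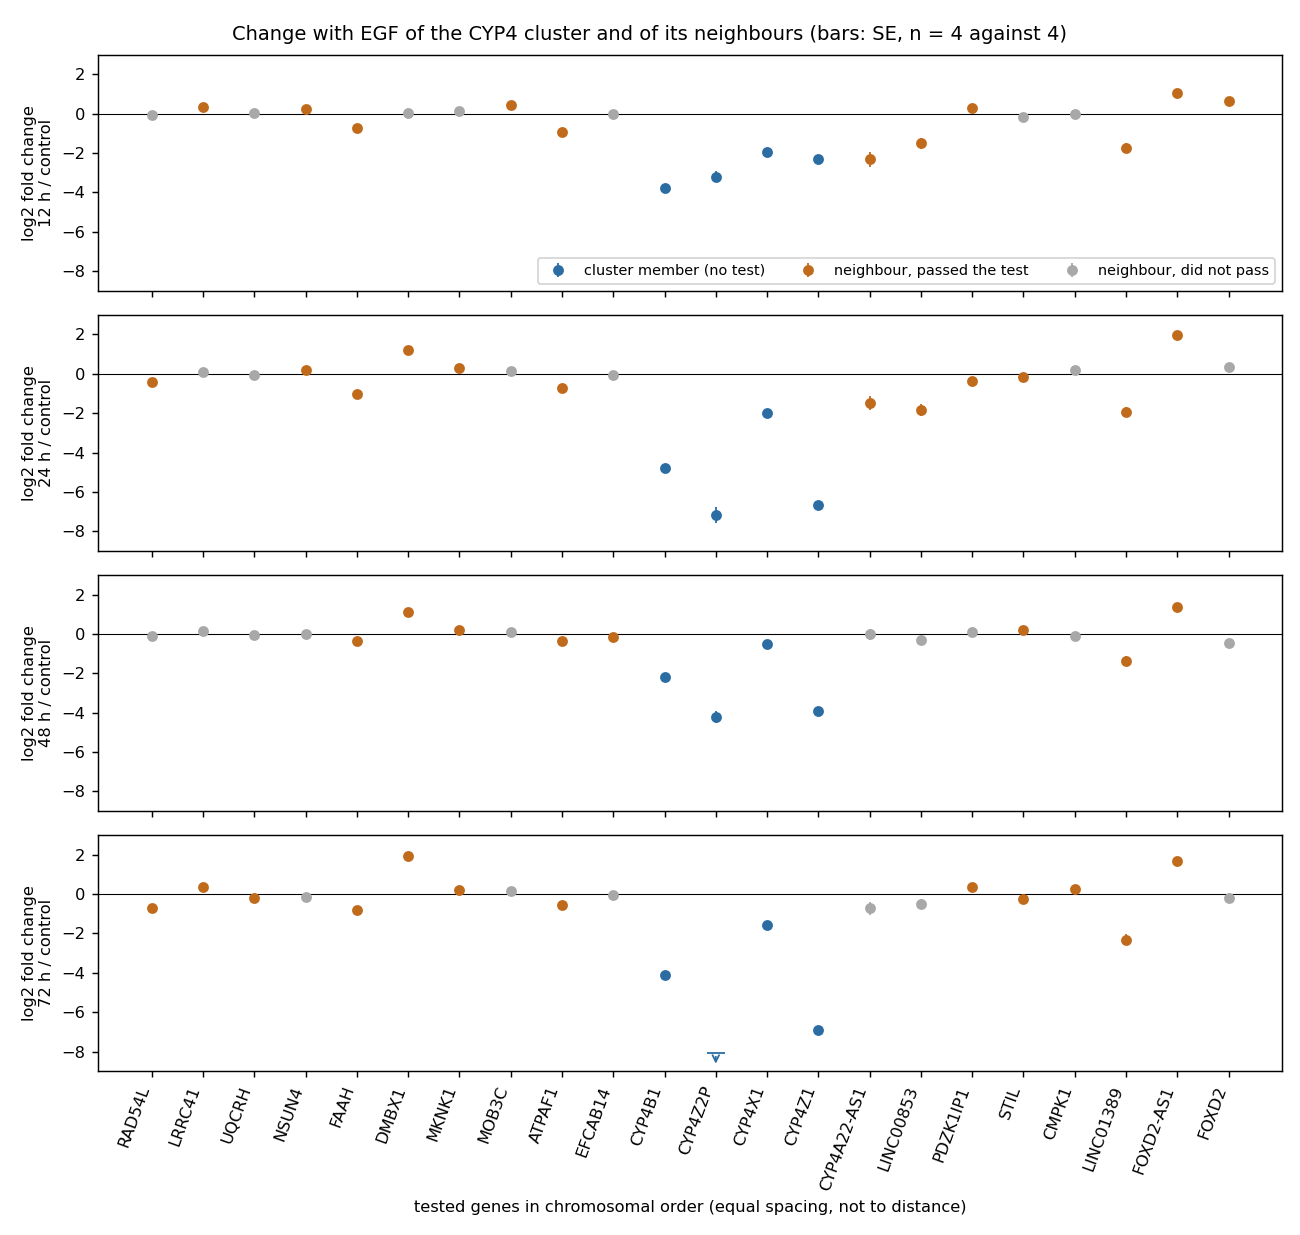
Log2 fold change against control of the 22 tested genes in chromosomal order, equally spaced, with 1 panel per time of EGF and bars for the SE of 4 against 4 libraries. Blue, cluster genes, without a test, and with an arrow below the 271-fold limit for CYP4Z2P at 72 h. Orange, neighbours with an adjusted p under 0.05, and grey, the others. No neighbour went below -2.32, while CYP4Z1 reached -6.91 at 72 h.

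CYP4 genes elsewhere in the genome changed in both directions. Of the 23 listed genes of omega-oxidation and its partners, 19 were tested, and 6 rose and 10 fell at 12 h, 5 rose and 8 fell at 24 h, 7 rose and 6 fell at 48 h, and 7 rose and 9 fell at 72 h. The medians of their log2 fold changes were -0.56, -0.17, 0.10 and -0.16. The background of genes passing the test is that given above, and 10.4% of all genes tested were called lower at all 4 times. When libraries were scaled by total count alone, 4 rose and 11 fell at 24 h.

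CYP4F3, which inactivates leukotrienes by omega-hydroxylation, had 2.90 CPM ± 0.296 (SD, n = 4) in control and 6.73 ± 0.497, 13.0 ± 0.782, 13.0 ± 0.780 and 16.4 ± 1.09 CPM at the EGF times in order. All its EGF libraries lay above all controls. The share of all genes for which this held was not counted, so nothing is read from it. The log2 fold change of CYP4F3 at 72 h was 2.50 ± 0.10 (SE, adjusted p = 3.25e-16, edgeR). CYP4F2, a vitamin E and K hydroxylase of the liver, rose from 0.126 CPM ± 0.0709, or 11 counts, to 0.750 ± 0.219 at 24 h (2.54 ± 0.40, adjusted p = 8.85e-06). CYP4F11 was highest at 12 h, with 16.3 CPM ± 1.08 against 5.84 ± 0.815 in control (1.48 ± 0.12, adjusted p = 1.88e-10). CYP4F12 rose at 48 h (1.74 ± 0.28) and 72 h (1.43 ± 0.29), and its values at 12 h (-0.71 ± 0.35, adjusted p = 0.0727) and 24 h (-0.08 ± 0.33, adjusted p = 0.85) did not pass the test. The CYP4F genes are similar to each other, and how reads shared between them were counted is not stated. CYP4F8 and CYP4F22 were too low to be tested. CYP4V2, the family member linked to a retinal and corneal dystrophy, fell at all 4 times, from 40.3 CPM ± 4.14 to 13.2 ± 0.894 at 12 h (-1.61 ± 0.09, adjusted p = 1.57e-13). Its fall at 48 h, -0.26 ± 0.08, was lost without EGF 48 h replicate 2 and with only the 8 libraries in the fit.

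Among the partners, the electron donor POR fell at all 4 times, from 18.3 CPM ± 1.29 (SD, n = 4) to 10.4 ± 0.406 at 72 h (log2 fold change -0.81 ± 0.09, adjusted p = 6.73e-08), with its largest change, -0.87 ± 0.09, at 24 h. At 48 h, POR was at 15.1 CPM ± 2.11, and its fall of -0.28 was lost without EGF 48 h replicate 3 or 4 and with only the 8 libraries in the fit. CYB5A, the cytochrome b5 that can pass electrons to P450 enzymes, fell at all 4 times and was lowest at 24 h (-0.83 ± 0.07). The other listed electron donors did not fall. CYB5R3 rose at 12 h (0.65 ± 0.12), 48 h (0.45 ± 0.12) and 72 h (0.46 ± 0.12), and CYB5B did not pass the test at any time. The epoxide hydrolases also fell. EPHX1, the microsomal form, went from 190.1 CPM ± 26.8 to 55.4 ± 4.90 at 24 h (-1.78 ± 0.11, adjusted p = 1.01e-12), and EPHX2, the soluble form, from 2.01 CPM ± 0.099 to 0.464 ± 0.305 (-2.05 ± 0.33, adjusted p = 1.22e-05). CYP2U1, another fatty acid hydroxylase, was lowest at 12 h (-1.63 ± 0.24) and stood at 0.12 ± 0.21 (adjusted p = 0.681) at 48 h. Of the genes of haem synthesis, ALAS1, the first enzyme, rose at all 4 times, to 62.6 CPM ± 3.48 at 72 h against 26.2 ± 2.50 in control (1.25 ± 0.07, adjusted p = 2.42e-13). FECH, the last enzyme, fell at 12, 24 and 72 h and was at -0.07 ± 0.07 (adjusted p = 0.493) at 48 h.

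**Figure D4:**
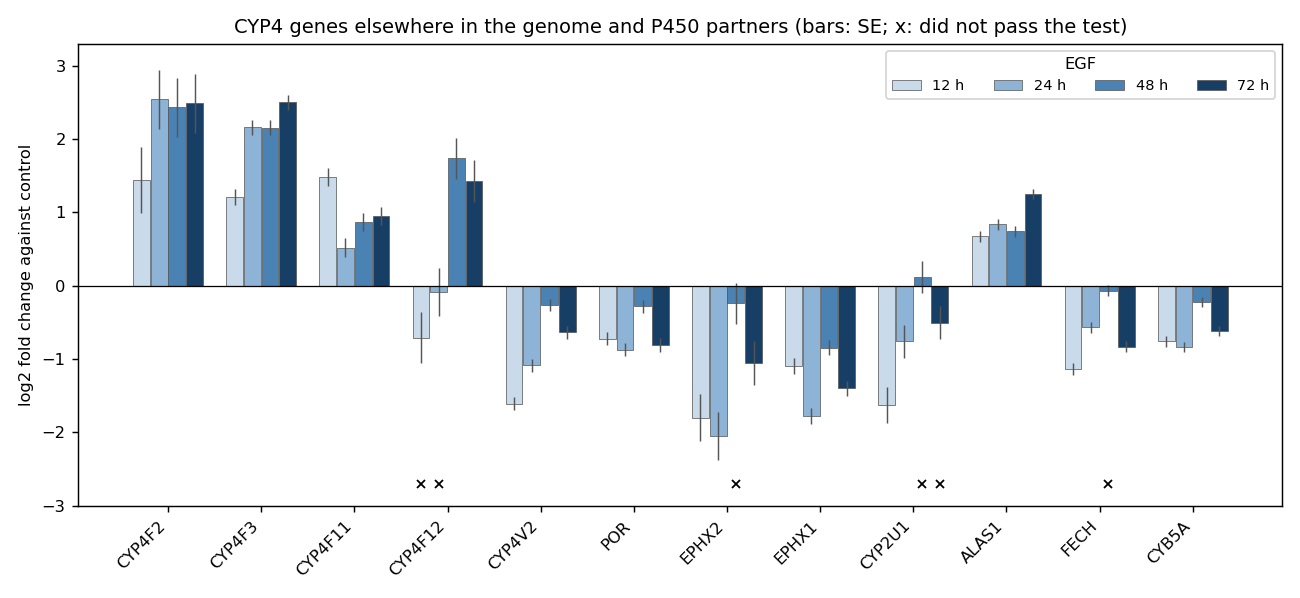
Log2 fold change against control of the tested CYP4 genes outside the cluster, POR and the 6 other listed genes with the largest changes, with 1 bar per time of EGF, from 12 h (light) to 72 h (dark), and lines for the SE. Crosses mark values that did not pass the test. CYP4F3 reached 2.50 at 72 h, while CYP4V2 was at -1.61 at 12 h.

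Of the listed receptors known to act on CYP4 genes in other tissues, 7 were tested. PPARA, PPARD, PPARG and NR3C1 rose at all 4 times. RXRA, the partner of the PPAR receptors, fell at all 4 times, by 0.78 on the log2 scale at 72 h. RXRB fell at 24 h and ESR1 at 12, 24 and 72 h. PGR had no count. The rise of PPARD at 48 h was lost without control replicate 1 or 3, without EGF 48 h replicate 1 or 2, and in 2 other alternatives.

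The pattern of CYP4X1 over the 20 libraries was compared with that of every other tested gene by the correlation of log2 CPM. The points share 5 groups and their libraries, so that r describes likeness of course and nothing else. The highest values of r were found for YIPF1 (0.986, Spearman's rho 0.940), SPA17 (0.982, rho 0.926), TMEM260 (0.982, rho 0.956), RERG (0.980, rho 0.932) and SNAPIN (0.979, rho 0.902). Ranked by Spearman's rho, none of these 5 was among the first 5. SPA17 had 11.1 CPM ± 1.70 in control and then 2.61 ± 0.160, 2.51 ± 0.347, 8.01 ± 1.03 and 3.80 ± 0.504 CPM by time of EGF. The most opposite gene was KRT14, the basal keratin, with r = -0.990 (rho -0.964). Its level was 6.61 CPM ± 1.08 in control and then 33.7 ± 1.29, 38.3 ± 4.23, 11.8 ± 1.12 and 28.5 ± 2.62 CPM. Within the cluster, CYP4X1 was closest to CYP4B1 (r = 0.944), while CYP4Z1 was closest to CYP4Z2P (r = 0.970), with which it shares stretches of sequence. The r of CYP4Z1 with CYP4X1 was 0.644.

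**Figure D5:**
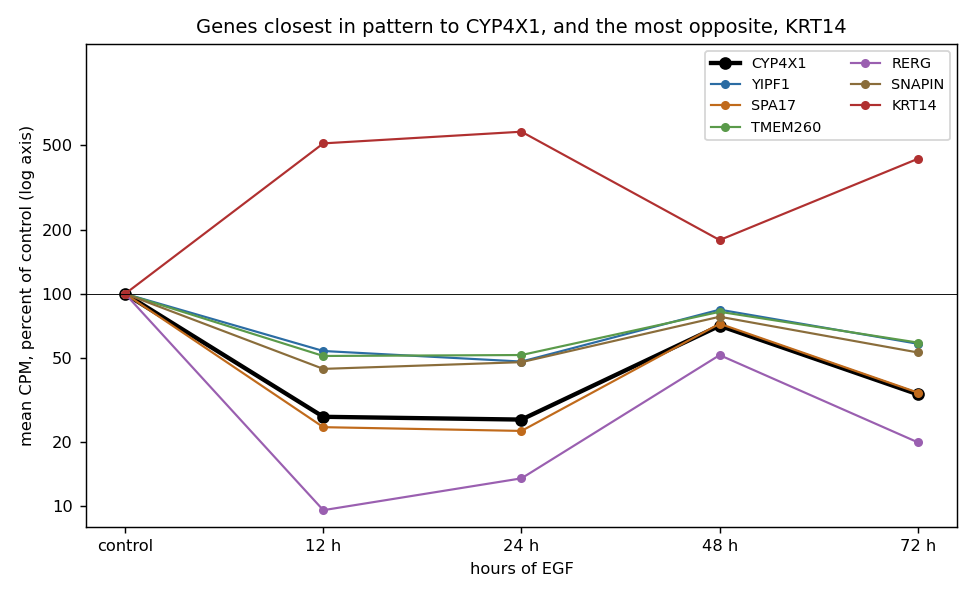
Mean CPM as percent of control, on a log axis, by hours of EGF, for CYP4X1 (thick black line), the 5 genes closest to it in pattern and KRT14. CYP4X1 and SPA17 ran close together, with 26.4% of the control level of CYP4X1 left at 12 h and 70.7% at 48 h, and KRT14 ran the opposite way.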

How the data were processed

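RNA from 20 cultures of MDA-MB-468 cells was turned into Corall mRNA libraries (Lexogen), which were read from 1 end over 75 bases. The authors deposited, for each of 60271 genes and each library, an estimated count without normalization, given as a whole number. Beside it, the authors deposited a normalized value per library, a score on the scale of counts made in DESeq2, which was used here only as an alternative. The tables also hold the authors' fold changes and p-values, which were not used. The submitters' processing notes name hg38 and DESeq2, and the aligner, the counter, the strand setting and the handling of molecular identifiers are not given in the sources used here, so duplicates may be counted. The cluster genes and all lists were chosen with earlier results of these data known.

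Counts were analyzed with edgeR 4.0.16 in R 4.3.3. Genes were kept by filterByExpr, libraries were scaled by TMM, and a mean per group was fitted to all 20 libraries with glmQLFit in its robust form. Contrasts were tested with glmQLFTest and Benjamini-Hochberg adjustment over 16522 genes, at an adjusted p under 0.05 and a prior count of 0.125. The procedure was tested on simulated data for EGF 12 h against control, where it called 149 of 195 genes changed 2-fold, with 9 unchanged genes, among 15370 tested. Few genes were changed in this simulation, while 69.4% of all genes passed the test at 12 h in the data. The simulation therefore cannot show the error rate in that setting. Cluster genes that did not pass the filter were given as a ratio with an exact 95% interval for counting error. A group with no count was given as a bound, at 3 counts over the group. Any 2 replicates of a group differed by at least 3.49 times the sampling noise, so all were counted as separate samples. Replicate numbers did not pair the samples. Over 40 pairs of libraries with the same number, the correlation of their deviations from the group means had a median of 0.01 and ranged from -0.24 to 0.35.

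Named genes were all 6 cluster genes, the neighbours within 500 kb that were tested, the CYP4 genes and POR of the partner list with the 6 other members that changed most, and the 5 genes most like CYP4X1 with the 1 most opposite (log2 CPM with a prior count of 2). Receptors were named in addition. CYB5B and CYB5R3 are given to complete the electron donors and are not among the named genes counted below. Gene positions and lengths came from GENCODE 29, promoters from RefSeq (GRCh38.p14). Sequences were compared with Biopython 1.88. Alternatives were DESeq2 1.42.0 (Wald test, size factors), scaling by library size or upper quartile, a filter at 1 count in all or at 10 counts per library, fits of the 8 libraries of a comparison alone, a replicate block, another prior count (2), and each library left out in turn. A genome sequence and protein sequences were not used here.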

Additional observations from a re-analysis of the deposited data

Results flagged for a closer look

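All 43 named genes outside the cluster differed between at least 1 of the 6 pairs of EGF times, with an adjusted p under 0.05 for the difference itself in edgeR's quasi-likelihood test. Some of these genes were named for their course or size of change in these same libraries. The share of all tested genes that differed in this way was not computed, so nothing is read from this count. The values that follow are, for each gene, the largest difference between EGF times that passed the test. They are on the log2 scale, the first time minus the second. Among the neighbours, the differences above 0 were LRRC41 by 0.25 (72 against 24 h), FAAH by 0.67 (48 against 24 h), DMBX1 by 1.93 (72 against 12 h), MKNK1 by 0.18 (24 against 12 h), ATPAF1 by 0.55 (48 against 12 h), CYP4A22-AS1 by 2.28 (48 against 12 h), LINC00853 by 1.55 (48 against 24 h), PDZK1IP1 by 0.73 (72 against 24 h), CMPK1 by 0.33 (72 against 48 h) and FOXD2-AS1 by 0.92 (24 against 12 h). Those below 0 were RAD54L by -0.60 (72 against 12 h), UQCRH by -0.21 (72 against 12 h), NSUN4 by -0.37 (72 against 12 h), MOB3C by -0.33 (48 against 12 h), EFCAB14 by -0.17 (48 against 12 h), STIL by -0.48 (72 against 48 h), LINC01389 by -0.95 (72 against 48 h) and FOXD2 by -1.11 (48 against 12 h). The noncoding genes CYP4A22-AS1 and LINC00853, next to CYP4A22, had their largest differences at 48 h, when they were close to control. Of the partner genes, the differences were CYP4F2 by 1.10 (24 against 12 h), CYP4F3 by 1.29 (72 against 12 h), CYP4F11 by -0.96 (24 against 12 h), CYP4F12 by 2.45 (48 against 12 h), CYP4V2 by 1.35 (48 against 12 h), POR by 0.59 (48 against 24 h), EPHX2 by 1.81 (48 against 24 h), EPHX1 by 0.94 (48 against 24 h), CYP2U1 by 1.75 (48 against 12 h), ALAS1 by 0.58 (72 against 12 h), FECH by 1.07 (48 against 12 h) and CYB5A by 0.61 (48 against 24 h). Here, CYP4V2, POR, EPHX1, EPHX2, CYP2U1, FECH and CYB5A were all highest among the EGF times at 48 h, as the cluster genes CYP4X1 and CYP4B1 were. CYP4Z1 and CYP4Z2P were highest at 12 h. A higher level at 48 h than at 24 and 72 h was common, found in 77.2% of all genes called lower at both these times. Of the genes close to CYP4X1 or opposite to it, the differences were YIPF1 by 0.81 (48 against 24 h), SPA17 by 1.67 (48 against 24 h), TMEM260 by 0.69 (48 against 12 h), RERG by 2.43 (48 against 12 h), SNAPIN by 0.82 (48 against 12 h) and KRT14 by -1.70 (48 against 24 h). Of the receptors, they were PPARA by -0.26 (48 against 24 h), PPARD by -1.10 (48 against 12 h), PPARG by -0.38 (48 against 24 h), RXRA by -0.38 (72 against 48 h), RXRB by 0.35 (48 against 24 h), NR3C1 by -0.48 (48 against 12 h) and ESR1 by 1.304 (48 against 12 h). The differences between times of the cluster genes themselves were not tested.

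In 18 of 244 groups of 4 libraries, 1 library stood far from the other 3 by Dixon's criterion, which chance meets in about 1 of 20 groups. For the cluster genes, these were CYP4B1 in EGF 12 h replicate 2 (1.415 CPM, others 1.72 to 1.767), CYP4A11 in EGF 12 h replicate 2 (0.05443 CPM, others 0 to 0), CYP4A22 in EGF 12 h replicate 4 (0.04778 CPM, others 0 to 0) and CYP4A22 in EGF 24 h replicate 1 (0.04939 CPM, others 0 to 0), of which the CYP4A11 and CYP4A22 values are 1 count each. For the other named genes, they were DMBX1 in EGF 48 h replicate 2 (5.619 CPM, others 3.713 to 3.872), MOB3C in EGF 12 h replicate 1 (14.49 CPM, others 13.04 to 13.14), EFCAB14 in EGF 24 h replicate 3 (318.3 CPM, others 290.4 to 293.7), EFCAB14 in EGF 72 h replicate 4 (285.6 CPM, others 306.4 to 310.5), ALAS1 in control replicate 2 (29.95 CPM, others 24.68 to 25.46), YIPF1 in EGF 72 h replicate 3 (124.9 CPM, others 115.6 to 116.7), SPA17 in EGF 12 h replicate 3 (2.373 CPM, others 2.667 to 2.724), TMEM260 in EGF 72 h replicate 3 (20.65 CPM, others 16.97 to 17.22), PPARA in EGF 48 h replicate 3 (103.7 CPM, lowest of the others 100.8), PPARG in control replicate 3 (41.58 CPM, others 35.96 to 36.54), RXRB in EGF 12 h replicate 1 (15.44 CPM, others 13.24 to 13.55), RXRB in EGF 72 h replicate 3 (13.28 CPM, others 14.48 to 14.61), RERG in EGF 24 h replicate 1 (16.4 CPM, others 10.39 to 10.84) and KRT14 in EGF 24 h replicate 1 (32.01 CPM, others 39.84 to 41.21). Both of the outlying values at 24 h for RERG and KRT14 came from replicate 1, and those of YIPF1, TMEM260 and RXRB at 72 h from replicate 3.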

How the results depend on the processing

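No log2 fold change of CYP4X1, CYP4Z1, CYP4B1 or CYP4Z2P changed sign with DESeq2 size factors, library size only, the deposited normalized values, a prior count of 2, the replicate block or any 1 library left out. The other alternatives were not computed for these genes, and CYP4Z2P at 72 h, with no count, has none. Scaling by library size only moved the median of all genes by -0.28 at 12 h and -0.14 at 24 h, and upper quartile scaling moved it by -0.16 at 12 h. With library size only, the changes at 12 h were -2.61 for CYP4Z1, -3.47 for CYP4Z2P, -2.21 for CYP4X1 and -4.05 for CYP4B1, and that of CYP4X1 at 24 h was -2.11. With a prior count of 2, CYP4Z1 was at -6.38 at 24 h and -6.58 at 72 h, and CYP4Z2P at -5.99 at 24 h, since these groups have few counts. From the deposited normalized values, CYP4Z1 was at -2.75 at 12 h and -4.46 at 48 h, and CYP4B1 at -4.45 at 24 h. The cause was not tested. Leaving out 1 library at a time gave -7.97 to -6.72 for CYP4Z2P at 24 h. With the length of the longest transcript in place of merged exons, the control level was 67.1 CPM per kb for CYP4X1, 10.5 for CYP4B1 and 0.0942 for CYP4A22, which placed CYP4B1 above CYP4Z2P.

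With only the 8 libraries compared in the fit, 4 neighbours passed at 48 h in place of 8, 2 higher and 2 lower. With library size only, the calls over all genes were 3581 higher and 8269 lower at 12 h, against 5433 and 6032, and 3668 higher and 6420 lower at 24 h. NSUN4 at 12 h was at -0.052 with library size only, against 0.23. Of 133 calls of named genes outside the cluster, 115 were kept in every alternative and 18 were lost in 1 or more, 15 of these among the neighbours. The replicate number is not a pairing here, and with the replicate block 12 neighbours and 15 partner genes passed at 12 h, and CYP4Z1 was at -2.33. It moved no count of calls by over 1.5 times. Genes under about 1 CPM have few counts at this depth, and CYP4A11 and CYP4A22 could not be tested.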
